A study of Homo sapiens with 3 samples.

Results

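The HOX cluster genes were taken as all protein-coding genes of GENCODE 44 whose symbol is HOXA, HOXB, HOXC or HOXD followed by a number, which gave 39 of the 19689 protein-coding genes with an annotated transcription start site (TSS). They have 77 protein-coding TSS and lie in 4 clusters on GRCh38: 11 HOXA genes on chromosome 7, 10 HOXB genes on chromosome 17, 9 HOXC genes on chromosome 12 and 9 HOXD genes on chromosome 2. The peaks came from ChIP-seq of Strawberry Notch 1 (SBNO1) and TATA-box binding protein associated factor 4 (TAF4), 2 proteins whose places on chromatin were compared, in HuCCT1, a cell line of bile duct cancer (cholangiocarcinoma). One antibody recognised SBNO1, one TAF4, and control immunoglobulin (IgG) measured the background of the procedure, and no treatment was labelled in any library. Each antibody had 1 library, made from pooled immunoprecipitates of several biological replicates, so no error between replicates could be assessed and no test was possible. Peaks were deposited as lists of called intervals with a score, and a site without a listed peak was not called at a depth that is unknown here, which does not show that the protein is absent.

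HOX genes encode homeodomain transcription factors that specify position along the body axis, and within a cluster the order of the genes follows the order in which they are used from head to tail. Low paralog numbers mark anterior genes and high numbers posterior genes. Outside their domain HOX genes are kept silent by Polycomb complexes, whereas Trithorax complexes keep them active, and many cancers express an altered set of them. TAF4 is a subunit of TFIID, the general factor that recognises core promoters, and SBNO1 is the human relative of the Drosophila nuclear protein Strawberry Notch.

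SBNO1 and TAF4 peaks overlapped at 4 places in the HOX clusters. The shared DNA is shown for 2 of them, a HOXA3 intron and a HOXB6 exon, as examples away from a protein-coding TSS. The HOXA3 site does cover an annotated start of the noncoding gene HOXA-AS2. The stretches were read from GRCh38 on the minus strand, the strand of the HOXA and HOXB genes, and left out bases of untranslated exons. Capitals mark exact matches to GGGCGG (KLF and SP factors) or CCAAT (NFY) or their reverse complements.
HOXA3 site, chr7:27115203-27115502, in an intron of HOXA3: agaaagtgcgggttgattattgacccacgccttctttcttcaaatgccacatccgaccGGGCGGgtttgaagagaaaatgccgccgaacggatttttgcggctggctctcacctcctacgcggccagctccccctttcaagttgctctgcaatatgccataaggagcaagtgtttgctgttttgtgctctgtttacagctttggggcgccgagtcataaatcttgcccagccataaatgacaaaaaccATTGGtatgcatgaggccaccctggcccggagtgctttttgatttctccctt
HOXB6 exon site, chr17:48598000-48598150, the start of the HOXB6 coding sequence: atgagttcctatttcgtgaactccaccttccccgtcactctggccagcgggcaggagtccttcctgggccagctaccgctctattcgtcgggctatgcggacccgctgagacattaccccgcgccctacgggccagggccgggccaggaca
The HOXB6 stretch is only the coding part of its site, so its lack of capitals does not describe the whole site. In the 300 bp at the peak centre, the SBNO1 peak of this site held 3 NFY matches and the TAF4 peak 2. The GC content was 64.2% in the HOXB6 coding stretch and 51.0% in the HOXA3 intron stretch. These values compare different kinds of sequence and not the whole sites.

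First, promoter peaks were counted, that is, peaks with an edge within 1 kb of any protein-coding TSS of a gene. HOXB6 was the only HOX gene with an SBNO1 promoter peak, 1 of 39 genes (2.56%, exact 95% Clopper-Pearson interval 0.0649% to 13.5%), while 25.7% of all protein-coding genes had one. TAF4 likewise had a promoter peak at HOXB6 alone, again 2.56% of the HOX genes, against 31.9% of all genes. Both proteins together were therefore found at 1 HOX promoter, compared with 22.6% of all protein-coding genes. No HOX gene had an IgG promoter peak (upper limit of the interval 9.03%), and over all genes the IgG share was 1.41%. By class, a peak of SBNO1 and of TAF4 was present at 0 of 8 anterior genes (paralog groups 1 to 3), 1 of 15 central genes (groups 4 to 8) and 0 of 16 posterior genes (groups 9 to 13). The intervals cover counting error only, and HOX genes of a cluster share their neighbourhood and are not independent of each other.

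HOX promoters were then compared with promoters of similar base composition. A TSS was called CpG-rich when the 500 bp on either side of it held at least 50% GC and an observed over expected CpG ratio of at least 0.6, a division made after the peaks were seen. Base composition was read at the canonical TSS of each gene, as marked by Ensembl, while peaks were counted at any protein-coding TSS. By this measure 32 of 39 HOX genes (82.1%) had a CpG-rich start, compared with 65.1% of all genes. Among the 32, none had an SBNO1 peak (upper limit 10.9%), although 33.9% of all genes with CpG-rich starts had one. For TAF4 the count was 0 of 32 as well, against 43.5%. HOXB6 itself was not CpG-rich, with 47.5% GC and a ratio of 0.376. The median GC content at the canonical starts was 59.7% for HOX genes and 61.3% for all genes.

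HOXB6, a central gene of the HOXB cluster on the minus strand, carried both proteins at its promoter. The SBNO1 peak at chr17:48604853-48605786 covered the TSS at 48604992 and was 934 bp wide, wider than most, with 97.1% of SBNO1 peaks at or below this width. Its score of 222 was the lowest of all 16147 SBNO1 peaks. TAF4 had 2 peaks in reach of this gene. One, at chr17:48604927-48605128, covered the TSS, was only 202 bp wide and reached the highest score of 1000, which 43.0% of the TAF4 peaks share. The other, at chr17:48603935-48604430, lay 556 bp inside the gene, scored 488 and overlapped no SBNO1 peak. The centre of the SBNO1 peak was 327 bp upstream of the TSS and that of the TAF4 peak over the TSS 35 bp upstream. IgG had no peak here, its nearest one being beyond the end of the cluster next to HOXB1. The HOXB6 promoter was thus listed for both proteins, by a lowest-scoring SBNO1 peak and a highest-scoring TAF4 peak.

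**Figure D1:**
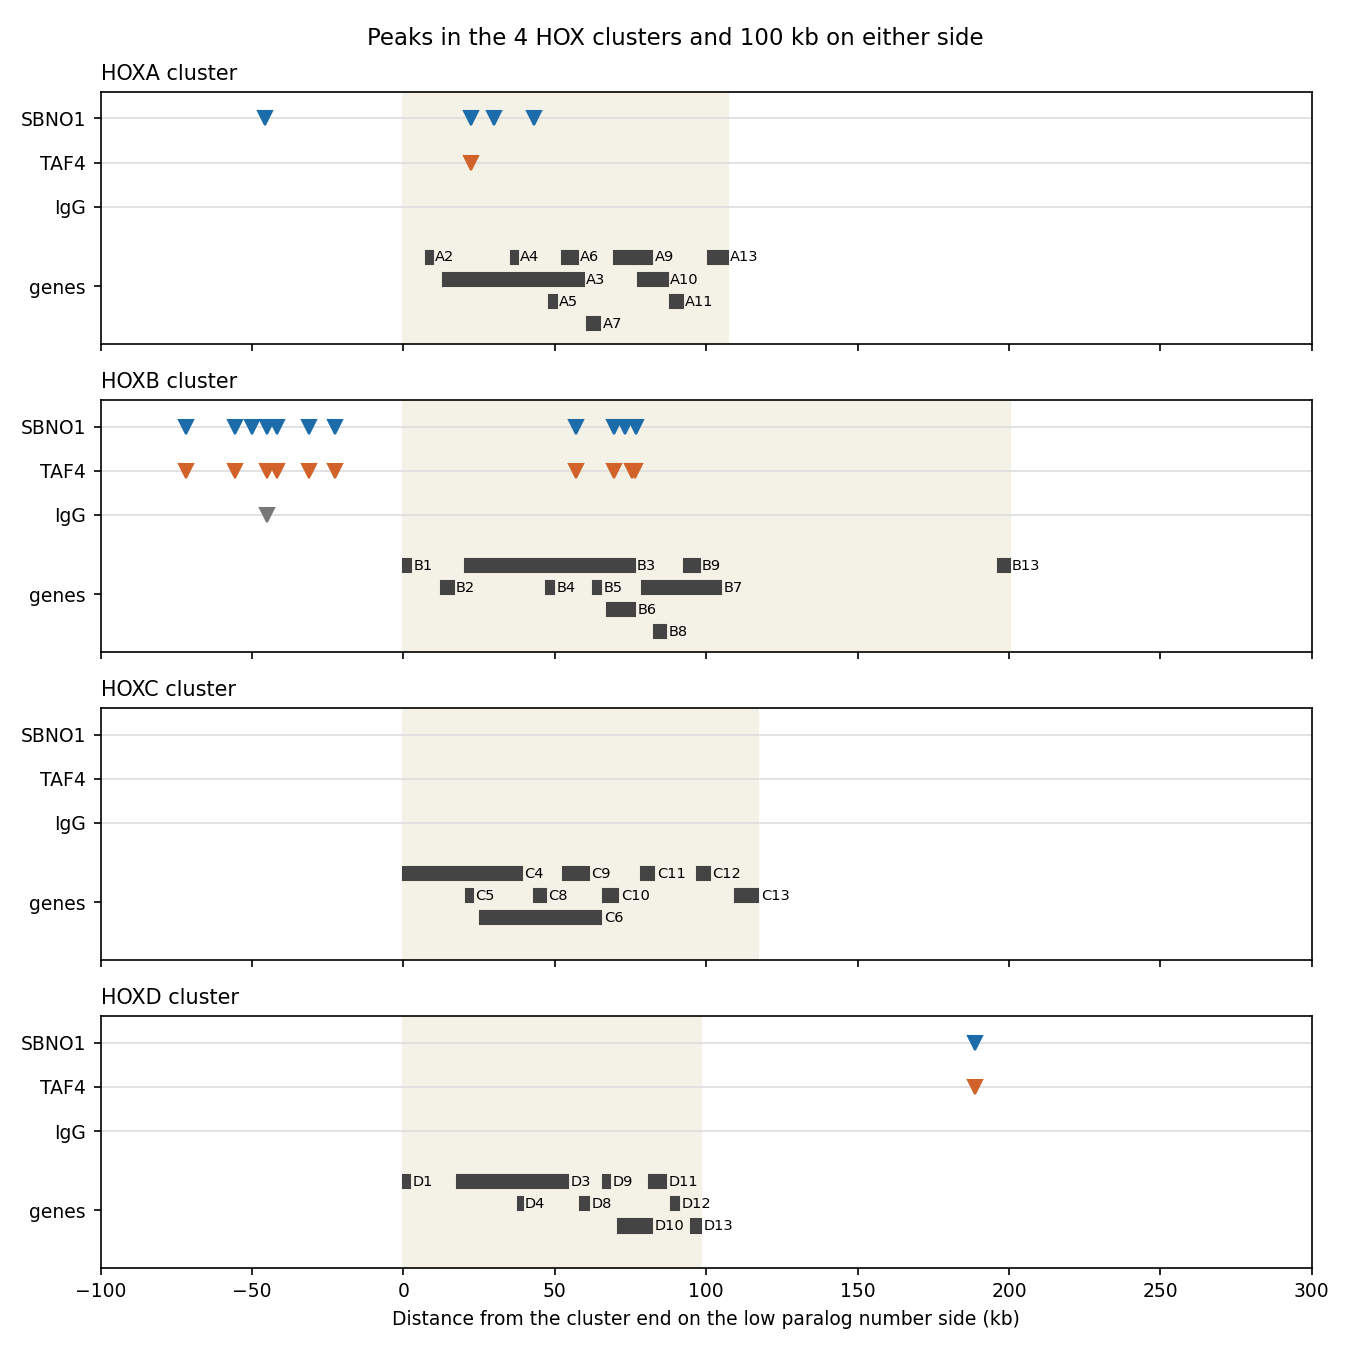
Peaks of SBNO1, TAF4 and IgG (triangles at peak centres) along the 4 HOX clusters, with HOX genes as dark bars and the cluster shaded; the x axis is the distance in kb from the cluster end with the lowest paralog number. SBNO1 had 3 peaks in HOXA and 4 in HOXB, TAF4 had 1 and 4, and HOXC and HOXD had none of any library.

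Next, the whole clusters were examined from the first to the last base of their HOX genes, 523 kb in all. SBNO1 had 7 peaks in them and TAF4 had 5, and IgG had 0. This came to 13.4 SBNO1 and 9.57 TAF4 peaks per Mb, while the assembled chromosomes held 5.23 and 4.13 per Mb. The higher density in the clusters rested on low-scoring peaks. At or above the median score of each list, the clusters held only 1 peak of each protein, or 1.91 per Mb. The chromosomes then held 2.62 per Mb for SBNO1 and 2.07 for TAF4. The HOXB cluster held 20.0 SBNO1 peaks per Mb and the 1 Mb on either side of it 20.5. The HOXA cluster held 28.0, from 3 peaks, and the 1 Mb on either side of it 8.5. HOXC and HOXD held none. With lists of equal length, SBNO1 came to 3.83 per Mb in the clusters, from 2 peaks, and 4.13 on the chromosomes. A protein-coding TSS lay within 1 kb of 1 of the 7 SBNO1 peaks (14.3%, interval 0.361% to 57.9%) and 2 of the 5 TAF4 peaks (40.0%, interval 5.27% to 85.3%), and the shares of the whole lists, 29.7% and 47.3%, were within these intervals.

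The HOXA cluster (chr7:27092993-27200091) held 3 SBNO1 peaks and 1 TAF4 peak, all in introns of HOXA3. HOXA3 is an anterior gene whose most distant annotated starts reach back over HOXA4, HOXA5 and HOXA6. At the HOXA3 site, the SBNO1 peak (chr7:27115150-27115557, 408 bp) had the highest score of 1000 and lay 1305 bp from a HOXA3 TSS at 27113845, just outside the limit of 1 kb. The TAF4 peak at the same place (chr7:27115051-27115703, 653 bp) scored 868. The other SBNO1 peaks stood without TAF4. The peak at chr7:27122604-27123178 scored 355, as low as or lower than all but a few, since 0.57% of the list had this score or less. The peak at chr7:27135688-27136304, between HOXA4 and HOXA5, scored 402, with 1.67% of the list at or below it. All peaks of the cluster fell in a stretch of 21.3 kb, leaving 22.1 kb on the low-numbered side and 63.8 kb from HOXA5 to HOXA13 without a peak.

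The HOXB cluster (chr17:48528526-48728750) held 4 SBNO1 and 4 TAF4 peaks in a stretch of 20.5 kb between HOXB4 and HOXB7, genes of the middle of the cluster. Another place with both proteins lay between HOXB4 and HOXB5 in a long intron of HOXB3, where the SBNO1 peak (chr17:48585371-48585784) scored 515 and the TAF4 peak (chr17:48585293-48585649) 566. Its nearest protein-coding TSS was that of HOXB3 at 48582622, 2749 bp away from the SBNO1 peak. The HOXB6 exon site had an SBNO1 peak (chr17:48598000-48598402) with a score of 497 and a TAF4 peak (chr17:48597956-48598404) with 592. These peaks covered the start of the HOXB6 coding sequence, and the nearest protein-coding TSS was that of HOXB5, 4221 bp from the SBNO1 peak. One SBNO1 peak of 247 bp at chr17:48601712-48601958, in an intron of HOXB6, scored 827 and had no TAF4 peak. The promoter peaks of HOXB6 made up the rest. Toward HOXB1, 56.8 kb of the cluster held no peak, and neither did 123 kb on the side of HOXB13.

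Neither the HOXC cluster (chr12:53938831-54056030) nor the HOXD cluster (chr2:176092721-176190907) had a peak of any library. Chromosome 12 held 7.54 SBNO1 and 5.83 TAF4 peaks per Mb and chromosome 2 held 3.9 and 2.94, below the 5.23 and 4.13 of all chromosomes. HOXC spans 117 kb and HOXD 98.2 kb, each under the length that held 1 peak on average on its chromosome. Against that rate, 0 peaks sets neither cluster apart. The 1 Mb on either side of HOXC was denser, with 13.5 SBNO1 peaks per Mb. At the density found there, a stretch shorter than HOXC held 1 peak of either protein on average. Whether 0 peaks sets HOXC apart from its surroundings was not tested. Around HOXC the nearest SBNO1 peaks lay 211 kb away on the HOXC13 side and 133 kb away on the HOXC4 side, the latter at SMUG1, a DNA repair glycosylase. Around HOXD the nearest was 90.3 kb from HOXD13 and covered the TSS of LNPK, which shapes the endoplasmic reticulum, with a score of 562 for SBNO1 and 581 for TAF4. On the HOXD1 side, no SBNO1 peak came closer than 1020 kb. Within 1 Mb outside HOXD there were 2 SBNO1 and 3 TAF4 peaks, fewer than the 27 and 20 around HOXC, the 17 and 12 around HOXA and the 41 and 37 around HOXB.

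The distance from each HOX gene to the nearest peak followed from these positions. In the HOXA cluster the nearest SBNO1 peak was 12.5 kb from HOXA2, 1.3 kb from HOXA3 and 4.91 kb from HOXA4. It then lay 7.38 kb from HOXA5, 11.5 kb from HOXA6, 20.4 kb from HOXA7, 29.2 kb from HOXA9, 38.0 kb from HOXA10, 48.9 kb from HOXA11 and 63.8 kb from HOXA13. TAF4 was about as near as SBNO1 at HOXA2 and HOXA3 and farther away from HOXA4 on, with 84.4 kb at HOXA13. The HOXA genes thus ran from near to far with rising paralog number from HOXA3 onward.
In the HOXB cluster the SBNO1 distances were 24.8 kb for HOXB1, 39.0 kb for HOXB2, 2.75 kb for HOXB3, 7.02 kb for HOXB4 and 4.22 kb for HOXB5. Past HOXB6, where the peak covered the TSS, they were 5.23 kb for HOXB7, 7.69 kb for HOXB8, 20.6 kb for HOXB9 and 102 kb for HOXB13. HOXB13 is set apart from the other HOXB genes by a long gap, and its nearest peak lay outside the cluster. TAF4 distances in HOXB differed from those of SBNO1 by less than 1 kb at each gene.
HOXC4, HOXC5, HOXC6, HOXC8, HOXC9, HOXC10, HOXC11, HOXC12 and HOXC13 were 135 to 227 kb from the nearest SBNO1 peak, with a median of 189 kb. HOXD1, HOXD3, HOXD4, HOXD8, HOXD9, HOXD10, HOXD11, HOXD12 and HOXD13 were 90.3 to 186 kb away, with a median of 120 kb. The median over all 39 HOX genes was 63.8 kb for SBNO1 and 84.4 kb for TAF4, against 33.6 and 30.8 kb over all protein-coding genes. For IgG the HOX median was 895 kb and that of all genes 1810 kb.

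**Figure D2:**
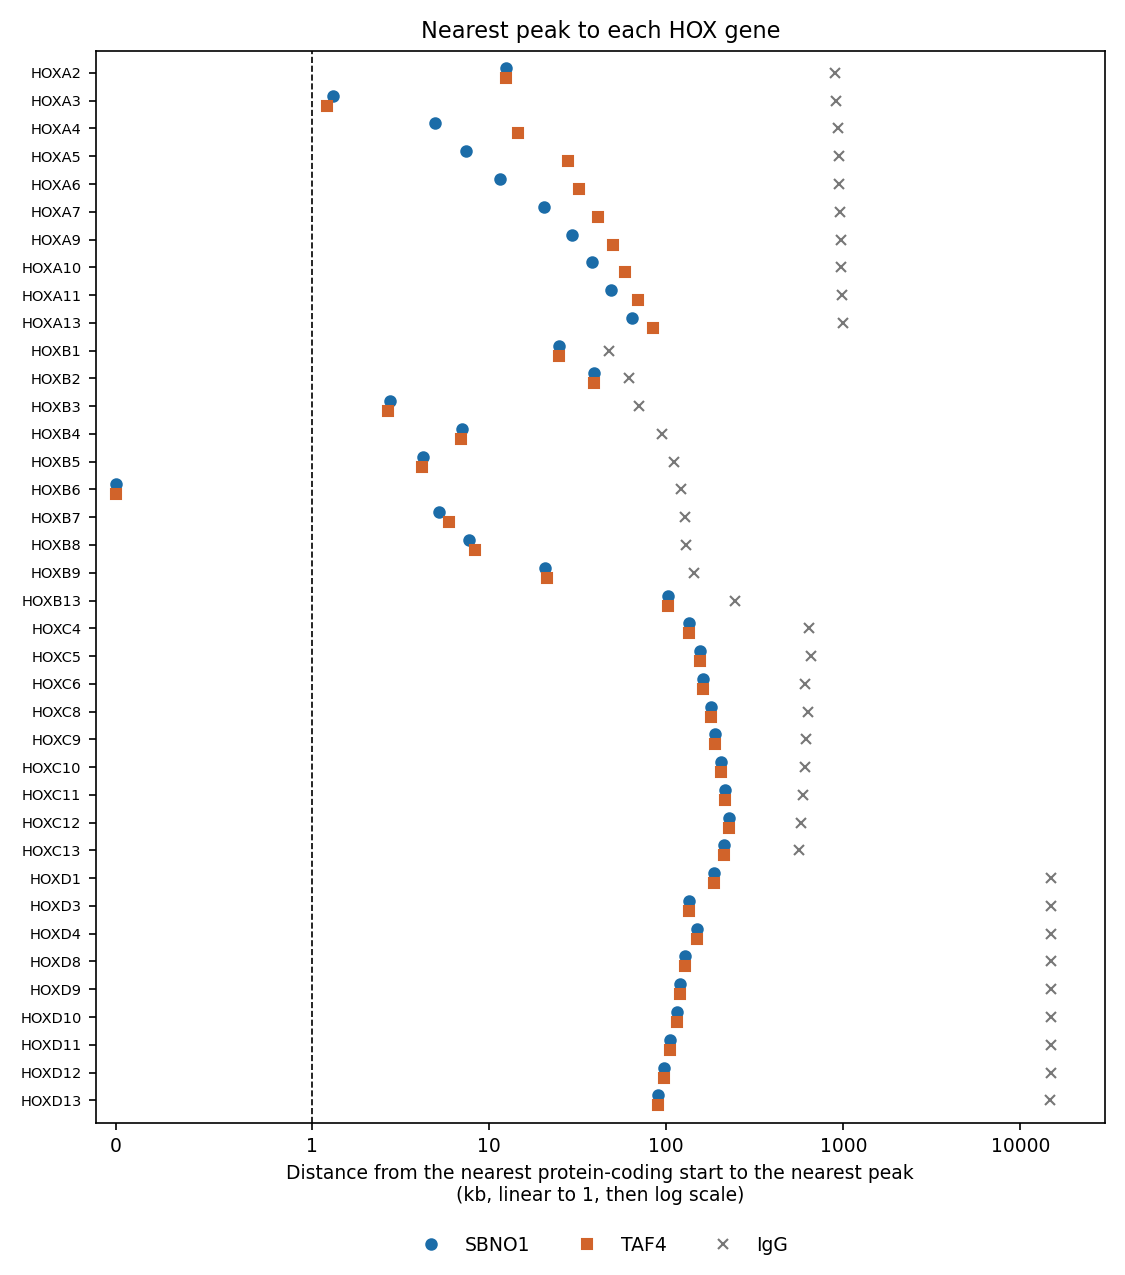
Distance in kb (linear to 1 kb, logarithmic beyond) from the nearest protein-coding TSS of each HOX gene shown to the nearest peak of SBNO1 (circles), TAF4 (squares) and IgG (crosses), with the 1 kb limit dashed. Only HOXB6 lies left of the limit, and the HOXC and HOXD genes lie between 90.3 and 227 kb from SBNO1 and TAF4 peaks.

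Noncoding genes within the clusters were examined because many HOX transcripts are noncoding. Of 28 long noncoding RNA genes that overlap a cluster, 2 had an SBNO1 peak within 1 kb of a start (7.14%, interval 0.877% to 23.5%), compared with 10% of all long noncoding RNA genes. TAF4 had a peak at 1 of them (3.57%, interval 0.0904% to 18.3%) against 11.2%, and IgG at 0 against 0.79%. The gene in both lists was HOXA-AS2, transcribed antisense to HOXA3, which has 12 annotated starts. SBNO1 and TAF4 at the HOXA3 site covered its start at 27115348, and the SBNO1 peak with a score of 355 covered another at 27123168. HOXB-AS3, antisense to the HOXB5 and HOXB6 region, had the SBNO1 peak with a score of 827 at 180 bp from its start at 48602138. The peaks carry no strand, so a peak in an intron of HOXA3 cannot be told apart from one at the promoter of HOXA-AS2. Of 8 microRNA genes in the clusters none had a peak within 1 kb of the annotated precursor start. MIR10A, between HOXB4 and HOXB5, came closest, at 5.42 kb from SBNO1 and 5.35 kb from TAF4.

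The overlap of the lists was then determined in the clusters. A TAF4 peak overlapped 4 of 7 SBNO1 peaks (57.1%, interval 18.4% to 90.1%), and over the whole list the share was 59.7%. Conversely, 4 of 5 TAF4 peaks overlapped an SBNO1 peak (80.0%, interval 28.4% to 99.5%) against 75.2% of the whole list. No peak of either protein in the clusters overlapped an IgG peak, while 8.57% of all SBNO1 and 10.9% of all TAF4 peaks did. Whether the IgG library had served as control in the calls was not given in the sources used here, which limits what an overlap with IgG, or its absence, shows. With 7 and 5 peaks these shares were not distinguishable from those of the whole lists.

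Scores of the cluster peaks were low for their lists. The SBNO1 peaks scored 222, 355, 402, 497, 515, 827 and 1000, and 6 of 7 were below the list median of 869. The TAF4 peaks scored 488, 566, 592, 868 and 1000, with 4 of 5 below the median of 935. One peak of each list reached the highest score, for SBNO1 at the HOXA3 site and for TAF4 at the HOXB6 promoter. Widths were ordinary, with a median of 414 bp for SBNO1 and 449 bp for TAF4 in the clusters against 397 and 400 bp in the lists. How the authors scaled the score was not given in the sources used here, so it was read only as a rank within a list.
Within 100 kb beside HOXB1, between that gene and SKAP1, there were 7 SBNO1 and 6 TAF4 peaks, none in a protein-coding gene. Their scores had a median of 1000 for SBNO1, where 6 of 7 were at or above the list median, and of 925 for TAF4, where 3 of 6 were. One IgG peak (chr17:48483341-48483665) lay among them and overlapped a peak of each protein.

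**Figure D3:**
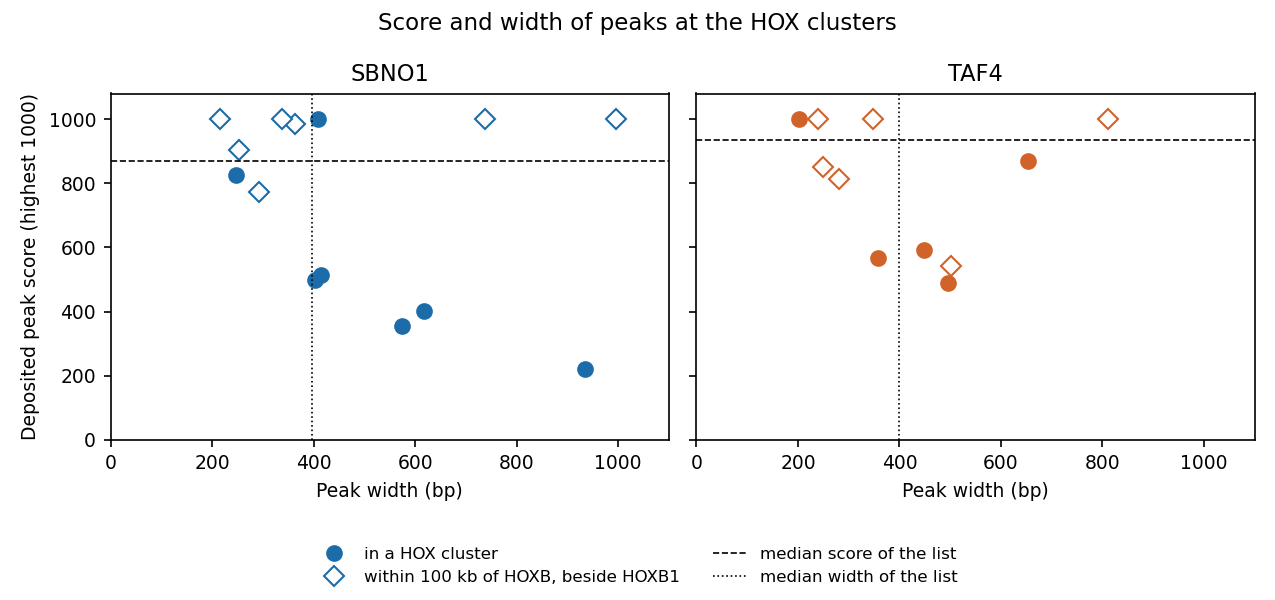
Deposited score (0 to 1000) against width in bp of the SBNO1 and TAF4 peaks in the HOX clusters (filled circles) and within 100 kb of the HOXB cluster beside HOXB1 (open diamonds), with list medians as dashed (score) and dotted (width) lines. Most cluster peaks lie below the score median of their list, and 6 of 7 SBNO1 peaks beside HOXB1 lie at or above it.

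Motifs were searched as exact letters on both strands in 300 bp at the centre of each peak, and shares are set against the whole lists. The cluster peaks held no TGACTCA or TGAGTCA, the sequence of AP-1, in any of 7 SBNO1 (upper limit 41.0%) or 5 TAF4 peaks (upper limit 52.2%), and the lists held one in 33.6% and 23.6% of peaks. CCAAT was present in 4 of 7 SBNO1 and 3 of 5 TAF4 peaks, against 35.3% and 38.4%. GGGCGG was found in 2 SBNO1 peaks and 1 TAF4 peak, against 26.9% and 41.2%. TATAAA, a core promoter element, occurred in 1 peak of each list, against 11.7% and 8.93%, and TGATNNAT (HOX with PBX) in 1 SBNO1 peak and no TAF4 peak, against 13.7% and 9.72%. GGGGAGGG (ZNF148 and ZNF281) was seen in 1 TAF4 peak and no SBNO1 peak, against 10.1% and 7.69%. CCGGAA (ETS) was in none, against 14.2% of SBNO1 and 19.4% of TAF4 peaks, and TAATTA (homeodomain) in none, against 4.91% and 3.41%. For each motif the share of the whole list lay within the interval of the cluster peaks. In both lists the cluster peak with the core promoter element was the one at the HOXB6 exon site. Most cluster peaks lay over 1 kb from a protein-coding TSS. Set against only such peaks of the lists, the shares were also within the intervals, except for AP-1 in SBNO1. That share was above the upper limit of 41.0%.
The promoters of HOX genes themselves were compared in the same way over 250 bases before and 50 after the start, as given by RefSeq on GRCh38.p14. This table held 27 promoters of 20 of the 39 HOX genes. The shares describe these promoters alone, some of which belong to the same gene, and no interval was computed for them. CCAAT was present in 66.7% of them and in 34.6% of all 35116 promoters, and GGGCGG in 48.1% and 45.0%. CCGGAA was in none of the HOX promoters and in 17.2% of all, and AP-1 letters were in none and in 4.95%. TATAAA was in 18.5% against 11.5%, GGGGAGGG in 18.5% against 13.6%, TGATNNAT in 11.1% against 7.4% and TAATTA in 7.41% against 4.84%. A match of letters is a description and not a binding site.

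To compare the HOX genes with the genes that work with or upstream of them, the same promoter count was made for related lists, to be read against the shares of all genes, 25.7% for SBNO1 and 31.9% for TAF4. ParaHox genes, the sister group of the HOX genes, had a promoter peak in 0 of 6 for SBNO1 and for TAF4 (upper limit 45.9%). TALE homeodomain proteins bind DNA together with HOX proteins. Of 9 TALE genes, SBNO1 was at 1 and TAF4 at 4. PBX4, MEIS1 and PKNOX1 had TAF4 alone, with scores of 1000, 891 and 933. Among 6 receptors of retinoic acid, a signal that induces HOX genes, both proteins were at RARA and RXRB.
Polycomb genes, whose products silence HOX clusters, carried SBNO1 at 10 of 29 promoters (34.5%, interval 17.9% to 54.3%) and TAF4 at 14 (48.3%, interval 29.4% to 67.5%), with the share of all genes inside the interval for SBNO1 and for TAF4. The genes of PRC2 core subunits EED and SUZ12 had both proteins and EZH2, its methyltransferase, had TAF4 alone. CBX8 and PCGF5, of PRC1, had both, as did the PRC2 partners JARID2, AEBP2, MTF2 and PHF1. PHF19 had SBNO1 alone, and RBBP4, PCGF1, PHC2 and PHC3 had TAF4 alone. Trithorax and boundary genes had the largest shares of the 5 related lists, with SBNO1 at 11 of 17 (64.7%, interval 38.3% to 85.8%) and TAF4 at 13 (76.5%, interval 50.1% to 93.2%). KMT2A, the methyltransferase that maintains HOX expression, and its partner MEN1 scored 1000 in both lists, as did RBBP5 and the cohesin gene RAD21. The others with both were KMT2D, ASH2L, ASH1L, KDM6A, KDM6B, NIPBL and CTCF, the insulator protein at HOX boundaries, and WDR5 and DOT1L had TAF4 alone. Thus the intervals of the HOX genes lay below those of the Polycomb and Trithorax lists for both proteins. IgG had no promoter peak in any of these lists.

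**Figure D4:**
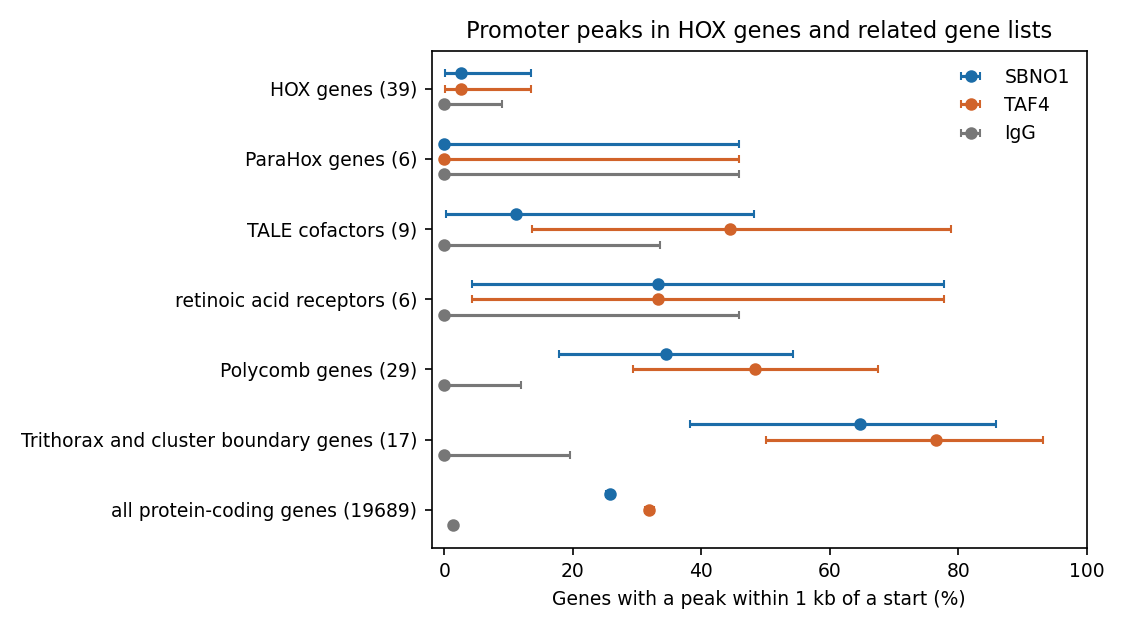
Share in percent of genes with a peak within 1 kb of a start for SBNO1, TAF4 and IgG in the HOX genes, 5 related lists and all protein-coding genes (number of genes in parentheses), with exact 95% Clopper-Pearson intervals as bars. The HOX genes stand at 2.56% for SBNO1 and TAF4, the Trithorax and boundary genes at 64.7% and 76.5%.

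Markers of biliary epithelium were also examined, although a promoter peak is no measure of expression and does not identify the cell line. TAF4 was at the promoters of KRT19, SOX9, EPCAM and KRT7, and SBNO1 at KRT19, SOX9 and EPCAM. The 4 other protein-coding genes inside the clusters had no peak within 1 kb of a start (upper limit of the interval 60.2%). Of 8 protein-coding genes whose body reaches into the 100 kb on either side, LNPK, SKAP2 and SMUG1 had both proteins at a start. This share was 37.5% (interval 8.52% to 75.5%), and the 22.6% of all genes lay within the interval. Of these starts, that of LNPK was less than 100 kb from a cluster.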

How the data were processed

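ChIP-seq was performed by the authors in HuCCT1 cells with antibodies against SBNO1 and TAF4 and with IgG, 1 library each. Per the study's methods, replicates were pooled, and single-end reads were trimmed with ktrim and aligned with Bowtie2 to GRCh38.p14. The submitters' processing notes list Bowtie2 2.5.4 and Genrich 0.6.1, while the methods name normR as peak caller, so which program made the lists is uncertain. The deposited score of a peak is the authors' value, with a scaling not given in the sources used here. The lists hold no read numbers, so depth is unknown, and no peak was filtered out. The paper reports far fewer promoters bound by SBNO1 and by TAF4 than were counted from these lists. A gene counted here, such as HOXB6, therefore need not be among those of the paper. The paper also places larger shares of its SBNO1 and TAF4 peaks within 1 kb of a TSS than the 29.7% and 47.3% of these lists. A cluster peak away from a TSS therefore need not be among its peaks either.

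TSS of protein-coding transcripts came from GENCODE 44 (GRCh38), 78567 sites. A gene was counted when a peak edge lay within 1 kb of any of its TSS, and every gene in reach of a peak was counted. Overlap meant 1 bp or more. Shares have exact 95% Clopper-Pearson intervals (scipy 1.17.1, Python 3.11.15), which cover counting error only. With 1 library per antibody no test was made. Coordinates are 1-based. All HOX genes are in the counts, of the related lists only genes with a promoter peak are named, and some genes and sequences are not reported here. The functions were tested on simulated data.

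The HOX genes, related lists and motifs were chosen with earlier results of these data known. The division by CpG content and the RefSeq starts were added after the peaks were seen. Alternatives were other distances, starts, overlap rules, cluster borders, score limits, list lengths and removal of IgG peaks.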

Additional observations from a re-analysis of the deposited data

How the results depend on the processing

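Of 63 alternative values, 41 stayed within 1.5 times the main count or within the interval of the main share, and 22 did not. Within 3 kb of a start, 3 HOX genes had an SBNO1 peak, 3 a TAF4 peak and 3 both, HOXA3 and HOXB3 joining HOXB6. With the starts of all transcripts the counts were 2, 2 and 2, HOXB3 joining HOXB6. The annotated HOXB3 gene begins at 48604912, inside the SBNO1 peak of the HOXB6 promoter, so that peak is in reach of both genes. When only peaks at or above the median score, only peaks with the highest score or lists of equal length were used, the count of HOX genes with SBNO1, and with both, was 0, since the SBNO1 peak of HOXB6 has the lowest score. With GENCODE and RefSeq starts together, chosen after seeing the data, 2 HOX genes had SBNO1. With 50 kb on either side the clusters held 13 SBNO1, 9 TAF4 and 1 IgG peak. At or above the median score they held 1 SBNO1 and 1 TAF4 peak, at the highest score 1 and 1, and with lists of equal length 2 SBNO1 peaks. The overlap of SBNO1 with TAF4 was 0.0% at or above the median score, where 1 SBNO1 peak was left. No paired analysis was possible because the results come from no test and a library stands alone for its antibody. Depth is unknown, and low-scoring peaks carry most of the HOX counts.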

Other observations

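RefSeq places HOXA3 starts at chr7:27122372 and chr7:27123027, which the GENCODE protein-coding transcripts used above do not have. The SBNO1 peak of the HOXA cluster with a score of 355 covered the second and lay 232 bp from the first, and no TAF4 or IgG peak was listed there. On the HOXA side facing SKAP2, 1 SBNO1 peak (chr7:27046994-27047439) stood between protein-coding genes with a score of 611 and no TAF4 peak. Beside HOXB1, AP-1 letters were in 1 of 7 SBNO1 and 2 of 6 TAF4 peaks.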
